A study of Mus musculus with 12 samples.

Results

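The genes analysed make the folding, sugar-modifying, quality-control and export machinery of the endoplasmic reticulum (ER). They were taken from the deposited pathway annotation as the 152 genes annotated with protein processing in the ER, less 15 genes of neighbouring stress pathways that the rule leaves out, such as Atf4, Ddit3, Hspa8 and Bax. This left 137 of the 22935 genes listed. Of these, 133 passed the filter on low counts that left 14146 genes in all. The 4 others (Hspa1b, Lman1l, Ube2d2b and Derl3) lay near or below the floor of 3 counts and were not tested. The rule itself uses no measured value.

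RNA came from BV2, an immortalised mouse microglial line, and all libraries analysed were from cells given 10 µM oxyhaemoglobin (oxy-Hb), the haemoglobin set free when blood enters the subarachnoid space. In 3 libraries C3a, the fragment of complement component C3 that binds the receptor C3aR, had been added to oxy-Hb at a labelled 20 ug/ul, although the unit looks doubtful, since a peptide would rarely be given so concentrated. In 3 libraries C3aRA had been added to oxy-Hb at 50 µM; the labels do not spell this name out. The remaining 3 libraries were of oxy-Hb alone, and these groups are called C3a, C3aRA and oxy-Hb. The 3 PBS samples were not analysed here, so the response of the ER genes to oxy-Hb itself was not measured.

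Proteins bound for the membrane or for secretion enter the ER through the Sec61 translocon, receive sugar trees from oligosaccharyltransferase, and fold with the help of BiP (Hspa5), Grp94 (Hsp90b1), calnexin, calreticulin and protein disulfide isomerases. Correctly folded cargo leaves in vesicles coated with COPII. Proteins that stay misfolded are pulled back to the cytosol and degraded by the proteasome, a route called ER-associated degradation (ERAD), in which Sel1l and the ubiquitin ligase Syvn1 (Hrd1) form a central complex. When unfolded proteins build up, the sensors Ire1 (Ern1), Perk (Eif2ak3) and Atf6 start the unfolded protein response (UPR), which raises chaperone and ERAD genes. In microglia this machinery serves the making of receptors, lysosomal enzymes and secreted cytokines.

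Total counts per library were 12934794 to 20479002, and a level of 3 counts equalled 0.146 to 0.232 CPM (counts scaled to library size), which limits detection by counting error alone. Cd68 (780 to 1070 CPM) and Ptprc (404 to 504 CPM) were abundant in all 9 libraries. Fcer1g (257 to 465 CPM), Tyrobp (142 to 291 CPM), Csf1r (60.7 to 83.4 CPM) and Itgam (37.3 to 91.1 CPM) were also expressed. The microglial markers P2ry12 (0.236 to 3.76 CPM), Tmem119 (0.943 to 2.33 CPM) and Aif1 (0.754 to 2.9 CPM) were near absent, and Cx3cr1 was low (3.71 to 10.6 CPM). Among markers of other cells, the oligodendrocyte gene Mbp had 5.58 to 8.64 CPM over the 9 libraries, and its part in the results was not tested. Gfap reached at most 0.709 CPM, Pecam1 at most 1.66 CPM, and no neuronal marker of the list was listed. The second C3a library stood apart: on the first principal component it lay at -76.3, against -10.8 to 23.8 for the other 8 libraries. Calls of ER genes with C3a and the median log2 fold change of the ER genes are therefore also given without it. Other C3a results, such as role lists, group overlaps, correlations with length and the second gene list, are given only with it. Nothing in the labels states that replicates came from separate cultures, so each p-value reflects variation among the libraries at hand, which could be technical.

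The ER genes were expressed well above the average gene. Per kilobase of transcript, the median over the 133 tested ER genes was 21.8 CPM, against 7.36 CPM over all genes tested, both as means over the 9 libraries. Hspa5, the main folding chaperone of the ER lumen, was the most abundant at 321 CPM per kb. It was followed by the disulfide isomerase Pdia6 (247 CPM per kb), the calcium-binding chaperone Calr (232 CPM per kb), Hsp90b1 (227 CPM per kb), the translation factor subunit Eif2s1 (226 CPM per kb) and the translocon-associated Ssr2 (224 CPM per kb). By role, the 7 disulfide-forming enzymes had the highest median level, 165 CPM per kb. Oligosaccharyltransferase with glucosidases reached a median of 39.8 and the translocon one of 39.5 CPM per kb, while the UPR list had a median of 16.7 CPM per kb. Of the stress sensors, Ern1 at 4.28 and Eif2ak3 at 2.81 CPM per kb lay low in this list, while Atf6 lay above its median at 30.7 CPM per kb. The ubiquitin ligase Syvn1 was also scarce at 2.78 CPM per kb, while its partner Sel1l was at 23.2 CPM per kb.

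**Figure D1:**
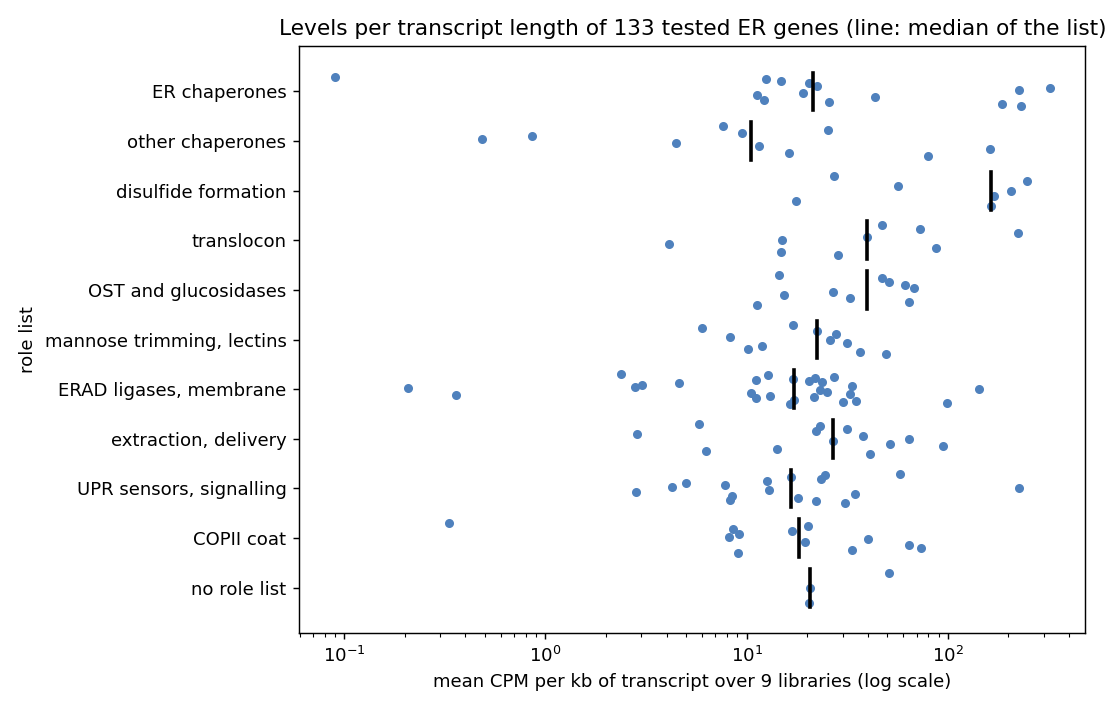
Mean CPM per kb of transcript over 9 libraries (log axis) of the 133 tested ER genes, 1 point per gene, in rows by role, with the median of each role as a line. Disulfide-forming enzymes have the highest median, at 165 CPM per kb.

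The 220 bases before the transcript start of 4 genes are shown because they carry the ER stress response element, the best-known promoter motif of ER chaperone genes, or its shorter form (Herpud1). These 4 of the genes with a match were chosen for display after their values were seen. The capitals mark the fixed letters of the element. Sequences are from RefSeq on GRCm38.p6, 5′ to 3′ on the strand of the gene.
Hspa5, chr2:34771870-34772089, plus strand: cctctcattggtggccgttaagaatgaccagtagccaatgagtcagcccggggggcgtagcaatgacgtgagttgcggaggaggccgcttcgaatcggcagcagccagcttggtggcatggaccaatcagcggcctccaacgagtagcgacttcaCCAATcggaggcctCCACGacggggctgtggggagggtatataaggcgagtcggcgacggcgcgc
Calr, chr8:84846932-84847151, minus strand: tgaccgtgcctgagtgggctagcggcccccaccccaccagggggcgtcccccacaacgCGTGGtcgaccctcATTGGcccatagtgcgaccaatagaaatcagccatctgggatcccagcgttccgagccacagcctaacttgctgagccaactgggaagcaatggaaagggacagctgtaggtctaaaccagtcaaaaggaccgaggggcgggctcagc
Syvn1, chr19:6046356-6046575, plus strand: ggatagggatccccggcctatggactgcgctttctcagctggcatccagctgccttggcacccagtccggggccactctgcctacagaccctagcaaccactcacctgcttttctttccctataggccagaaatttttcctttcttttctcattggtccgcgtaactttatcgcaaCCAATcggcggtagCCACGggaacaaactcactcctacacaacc
Herpud1, chr8:94386209-94386428, plus strand: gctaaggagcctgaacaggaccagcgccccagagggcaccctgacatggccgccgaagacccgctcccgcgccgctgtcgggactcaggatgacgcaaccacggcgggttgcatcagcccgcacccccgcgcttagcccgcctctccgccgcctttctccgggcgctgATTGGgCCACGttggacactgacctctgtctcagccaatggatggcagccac

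The element, ERSE, reads CCAAT, then 9 bases of any kind, then CCACG. In Hspa5 it began 65 bases before the transcript start, and in Syvn1 44 bases before it. In Calr the match was on the opposite strand, and its first base lay 162 bases before the start. Herpud1, a membrane protein that links ERAD components, had instead the shorter form ERSE-II (ATTGG, 1 base of any kind, CCACG), 52 bases before the start. RefSeq windows of 300 bases, from 250 before to 50 after the start, were matched for 113 of the 137 ER genes, and both strands were searched. ERSE occurred in 8 of the 113, or 7.08%, against 0.137% of the 27025 genes with such a window. These 8 were Calr, Canx, Derl3, Dnajc3, Hsp90b1, Hspa5, Pdia6 and Syvn1. ERSE-II was found in Dnajb11 and Herpud1, 1.77% of the ER genes and 0.0444% of all genes. The core of the unfolded protein response element, TGACGTGG, occurred in 5.31% of the ER genes and 0.714% of all genes, and the core of the amino acid and stress response element bound by Atf4, TGATGNAA, in 3.54% and 4.51%. ERSE is known as a motif of ER chaperone genes, so its larger share among the ER genes is no independent result. A match of letters is a description of these windows and not a measurement of binding.

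Addition of C3a to oxy-Hb asks how the ligand of C3aR shifts cells already exposed to oxy-Hb. Among the ER genes Tram1, Pdia3, Skp1a, Erp29, Rpn1 and Rpn2 rose, and the stress sensor Ern1, the ERAD ligase Syvn1 and the cargo adaptors Sec24a and Sec24b fell. In edgeR's quasi-likelihood test, 6 of 133 rose and 4 fell at an adjusted p below 0.05. The rises were 4.51% of the tested ER genes, against 0.905% of all genes tested, and the falls 3.01%, against 3.04%, a share like that of all genes. With library totals as the only scaling the split was 3 higher and 6 lower, with the share of all genes not counted. The median log2 fold change was 0.11 over the ER genes and 0.00 over all genes. In bulk RNA, fewer cells of a kind and less RNA per cell cannot be told apart.

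**Figure D2:**
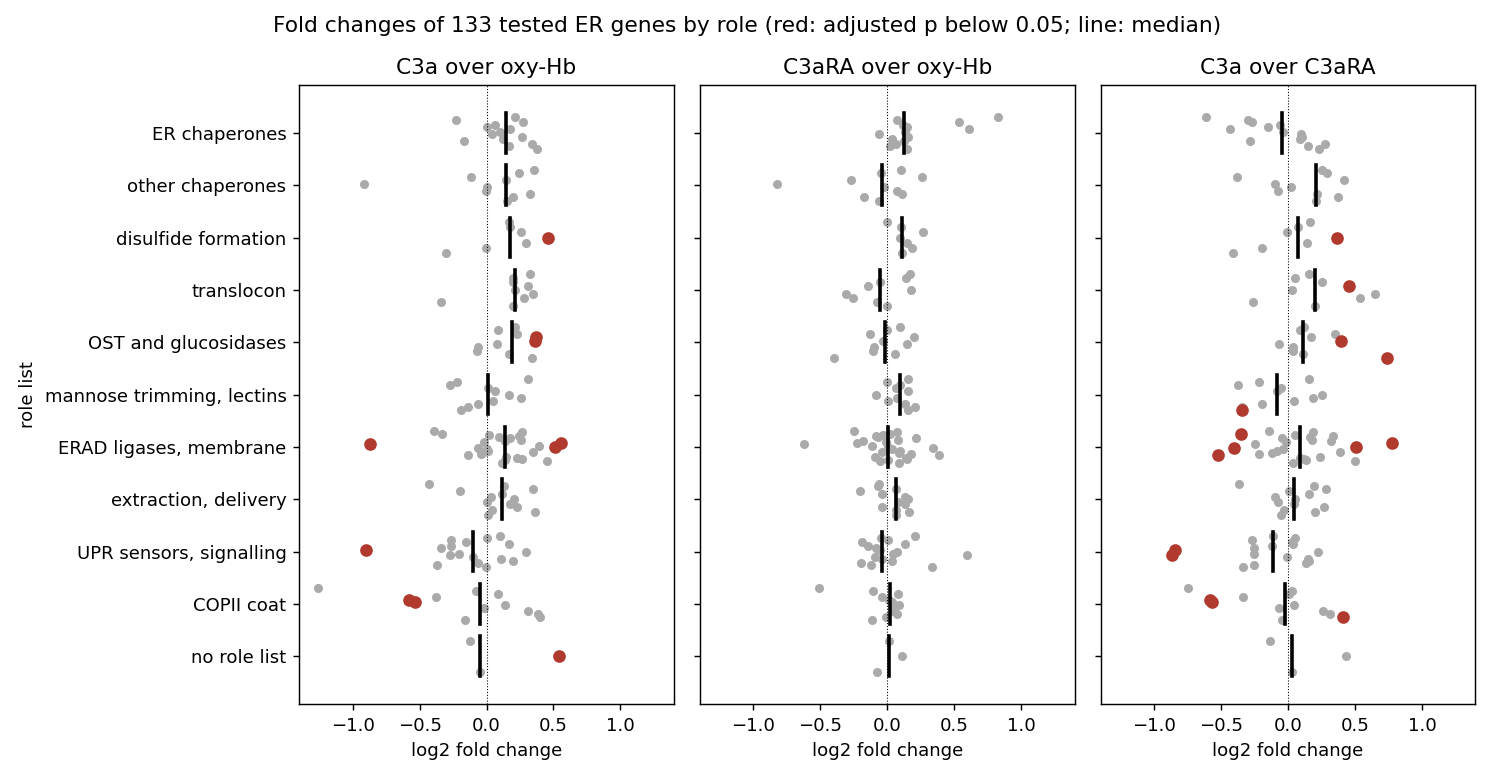
Log2 fold change (horizontal axis) of the 133 tested ER genes by role, 1 point per gene, for C3a over oxy-Hb, C3aRA over oxy-Hb and C3a over C3aRA. Red points passed an adjusted p below 0.05 and lines are medians: 10 genes are red for C3a over oxy-Hb, 0 for C3aRA over oxy-Hb and 15 for C3a over C3aRA.

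Tram1, which helps nascent chains enter the translocon, had 119, 150 and 122 CPM with C3a, against 90.9, 92.2 and 83.2 CPM with oxy-Hb alone. All C3a libraries lay above all oxy-Hb libraries. Its fold was 1.47 (log2 0.56 ± 0.11 SE, adjusted p = 0.0165). The gene lies at chr1:13564698-13589910 on the minus strand of GRCm38, as the deposited tables give it. Pdia3 (ERp57), the disulfide isomerase that works with calnexin and calreticulin on glycoproteins, had 615, 755 and 682 CPM with C3a, against 474, 515 and 502 CPM with oxy-Hb. Its groups did not overlap either, and the log2 fold change was 0.46 ± 0.10 (SE, adjusted p = 0.0226). Skp1a, the adaptor of SCF ubiquitin ligases, had 280, 353 and 308 CPM with C3a, against 203, 206 and 251 CPM with oxy-Hb, a log2 fold change of 0.51 ± 0.11 (SE, adjusted p = 0.0258).

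Both ribophorins, subunits of oligosaccharyltransferase, rose by similar amounts. Rpn1 had 279, 302 and 293 CPM with C3a, against 214, 234 and 233 CPM with oxy-Hb (log2 0.36 ± 0.09 SE, adjusted p = 0.0447). Rpn2 had 172, 195 and 200.4 CPM with C3a, against 144, 153 and 142 CPM with oxy-Hb (log2 0.37 ± 0.10 SE, adjusted p = 0.0487). Neither gene had overlapping groups. Erp29, a lumenal helper of secretory protein folding, had 109, 161 and 128 CPM with C3a, against 84.8, 89.3 and 98.9 CPM with oxy-Hb (log2 0.54 ± 0.13 SE, adjusted p = 0.0379). In Erp29, as in Tram1, Pdia3, Skp1a and Rpn1 but not Rpn2, the highest value came from the library that stands apart.

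Ern1, which encodes the UPR sensor Ire1, had the lowest adjusted p of the ER genes. It had 21.4, 15.6 and 20.4 CPM with C3a, against 39.4, 29.9 and 37.6 CPM with oxy-Hb. Every C3a library lay below every oxy-Hb library, and Ern1 fell to a fold of 0.536 (log2 -0.90 ± 0.15 SE, adjusted p = 0.00699). The gene lies at chr11:106394650-106487852 on the minus strand. The other sensors differed less: Eif2ak3 had a log2 fold change of -0.27 ± 0.17 (SE, adjusted p = 0.354), and Atf6 one of -0.01 ± 0.11 (SE, adjusted p = 0.979). Xbp1, whose mRNA Ire1 splices, had 108, 155 and 105 CPM with C3a, against 120, 118 and 106 CPM with oxy-Hb, a log2 fold change of 0.10 ± 0.14 (SE, adjusted p = 0.694). Gene counts do not separate its spliced from its unspliced form.

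Sec24a and Sec24b, COPII subunits that pick cargo for export, fell together. Sec24a had 41.7, 39.2 and 42.0 CPM with C3a, against 61.0, 55.9 and 61.4 CPM with oxy-Hb (log2 -0.54 ± 0.10 SE, adjusted p = 0.0134). Sec24b had 38.6, 30.3 and 36.6 CPM with C3a, against 53.2, 55.0 and 48.8 CPM with oxy-Hb (log2 -0.58 ± 0.12 SE, adjusted p = 0.0204). Their paralogs did not pass: Sec24c had a log2 fold change of -0.37 ± 0.14 (SE, adjusted p = 0.117) and Sec24d one of 0.09 ± 0.18 (SE, adjusted p = 0.797). The small GTPases that start the coat pointed the other way without passing, Sar1a at 0.40 ± 0.11 (SE, adjusted p = 0.0624) and Sar1b at 0.39 ± 0.13 (SE, adjusted p = 0.10) on the log2 scale.

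In the ERAD complex Syvn1 fell while its partners did not pass. Syvn1 had 7.88, 8.85 and 8.69 CPM with C3a, against 19.6, 15.8 and 11.1 CPM with oxy-Hb (log2 -0.87 ± 0.22 SE, adjusted p = 0.0416). Its groups did not overlap, although the oxy-Hb libraries were spread widely. Sel1l, which holds Syvn1 in place, had 132, 120 and 138 CPM with C3a, against 152, 126 and 131 CPM with oxy-Hb (log2 -0.07 ± 0.11 SE, adjusted p = 0.742). Herpud1 had 37.5, 40.6 and 28.8 CPM with C3a, against 43.4, 38.7 and 35.8 CPM with oxy-Hb (log2 -0.14 ± 0.14 SE, adjusted p = 0.551). Both overlapped with oxy-Hb. Hspa5 had 1056, 1242 and 978 CPM with C3a, against 1032, 918 and 956 CPM with oxy-Hb, overlapping groups with a log2 fold change of 0.17 ± 0.13 (SE, adjusted p = 0.433).

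Beside the genes that passed, C3a and oxy-Hb did not overlap in 33 ER genes that were higher with C3a, or 24.8% (13.2% of all genes tested), and in 16 that were lower, or 12% (14.6%). Of all 133 tested ER genes 87 had a log2 fold change above 0, as had 7098 of the 14146 genes. The role lists pointed in different directions. Tram1 was counted with the ERAD ligases and membrane factors, a list of 27 in which 2 rose and 1 fell. Of 9 translocon genes 0 passed, but 8 had a log2 fold change above 0 and the median was 0.21. Of 10 genes of oligosaccharyltransferase and glucosidases 2 rose, with a median of 0.19, and 6 had C3a libraries wholly above those of oxy-Hb. Of 7 disulfide-forming genes 1 rose, with a median of 0.17. The list of 14 ER chaperones and cochaperones also holds Dnajc5, which is not in the ER lumen. On it 0 passed and 12 were above 0, with a median of 0.15, and Calr came nearest (log2 0.38 ± 0.11 SE, adjusted p = 0.0715). The list of 17 UPR sensors and signalling genes also holds genes not specific to the UPR, such as Eif2ak1, Eif2ak2, Eif2ak4, Capn1, Capn2, Mapk8 and Mapk9. It had a median of -0.10 with 1 fall, and the 12 COPII genes a median of -0.05 with 2 falls. With library totals as the only scaling these medians kept their sign (translocon 0.11, UPR list -0.18), and 9 of the 14 chaperones were above 0. The median of the 11 mannose-trimming genes was then -0.08, against 0.01 with TMM scaling. The median over all genes moved likewise, from 0.00 to -0.09, so these shifts are not particular to single lists.

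These calls depended on single libraries. Without the second C3a library 14 ER genes were higher, or 10.5% (4% of all genes), and 7 lower, or 5.26% (5.55%), with a median of 0.06. Without the first C3a library the counts were 16 and 9, and without the third 3 and 3. Leaving out a C3aRA library left 1 and 4, 1 and 3, or 2 and 3 for replicates 1, 2 and 3. Leaving out oxy-Hb replicate 1 left 0 and 0, replicate 2 left 0 and 2, and replicate 3 left 1 and 4. Calls over all genes also moved with the libraries, from 128 to 584 higher without the second C3a library. For the other fits the share of all genes was not counted, so these changes cannot be read as particular to the ER genes. Over the 9 fits with 1 library left out, Ern1 and Sec24a passed in 8 and Sec24b in 7. Tram1 passed in 6, Pdia3, Skp1a and Syvn1 in 4, and Erp29, Rpn1 and Rpn2 in 2. All 10 kept their direction in all 9. In the authors' deposited table, which compares the same libraries, 4 ER genes were higher (Erp29, Pdia3, Skp1a and Tram1) and 4 lower (Ern1, Sec24a, Sec24b and Syvn1) at an adjusted p below 0.05, against 0.379% and 1.84% of all genes listed.

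**Figure D3:**
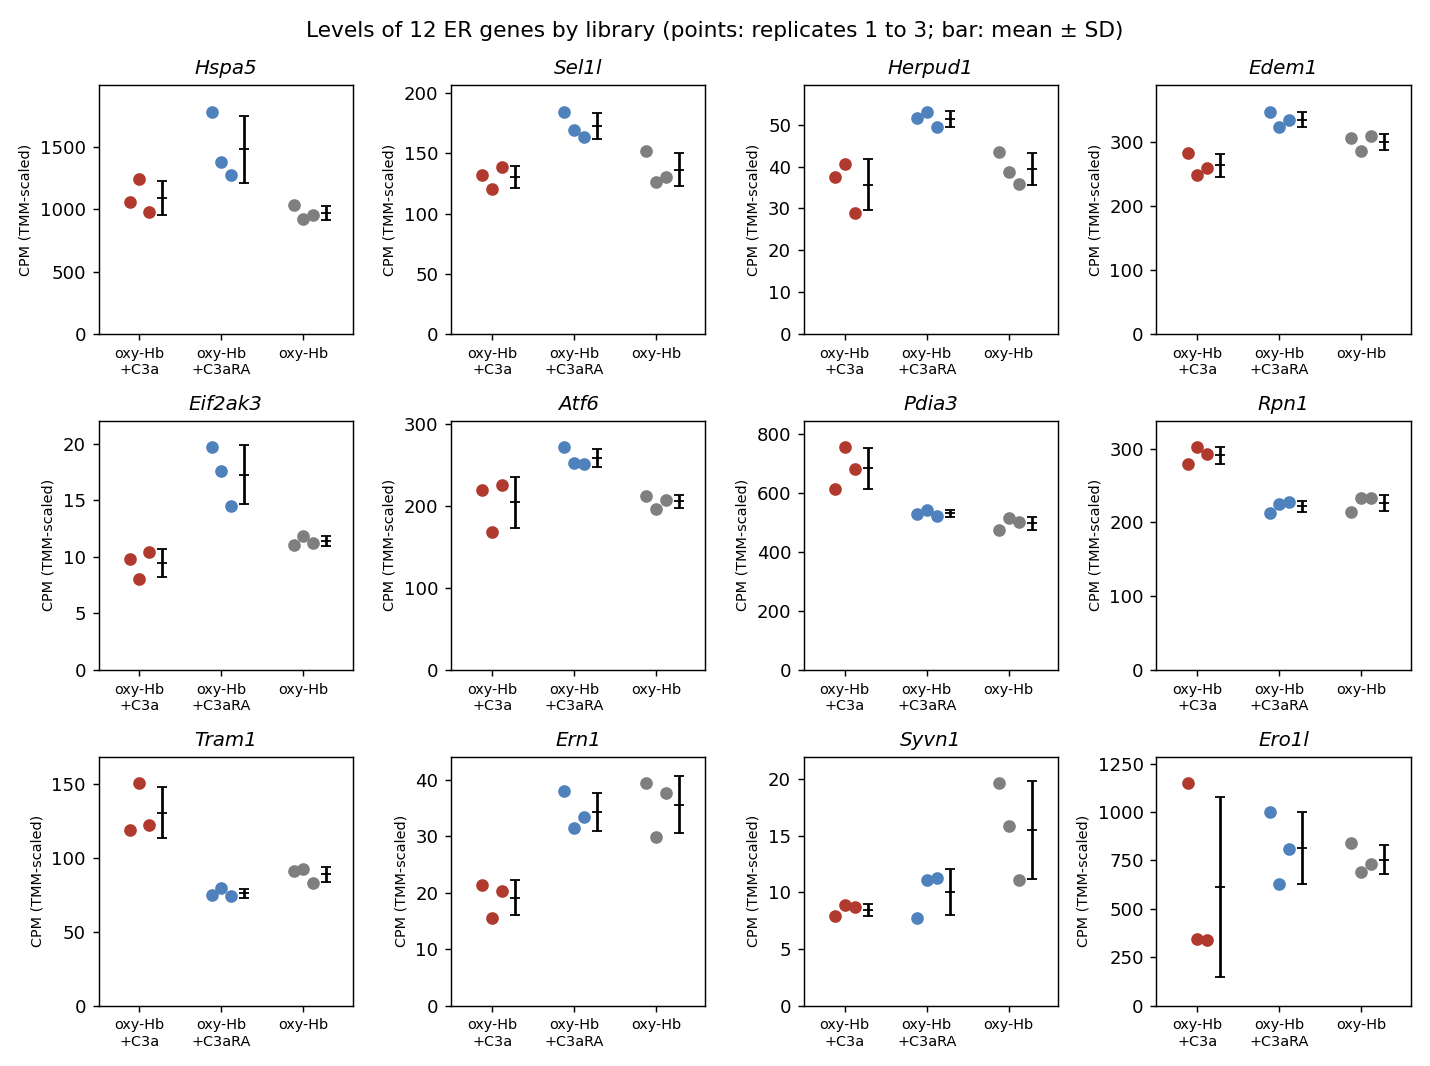
TMM-scaled CPM of 12 ER genes in each library of C3a, C3aRA and oxy-Hb, with the mean and SD of each group (n = 3). Tram1, Pdia3 and Rpn1 are highest and Ern1 lowest with C3a, while Hspa5, Sel1l, Herpud1, Edem1, Eif2ak3 and Atf6 are highest with C3aRA; Ero1l has 1148 CPM in the first C3a library, and 347 and 340 CPM in the others of that group.

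With C3aRA the lowest p among higher ER genes belonged to Hspa5, Eif2ak3, Sel1l, Atf6 and Sil1, and among lower ones to Syvn1 and Dad1. None of the 133 passed in the fit of all 9 libraries, as none of the 14146 genes did (0% in both directions). The 17 UPR genes as a list had a median log2 fold change of -0.04, with 8 above 0 and 9 below. At an unadjusted p below 0.05, 8 ER genes were higher, or 6.02% (3.37% of all genes), and 2 lower, or 1.5% (4.78%). DESeq2 called 1 ER gene (Hspa5) and limma-voom 0, with the share of all genes not counted. The median log2 fold change was 0.05 over the ER genes and -0.01 over all genes. C3aRA libraries lay wholly above oxy-Hb in 26 ER genes, or 19.5% (11.9% of all genes), and wholly below in 6, or 4.51% (11%).

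Hspa5 had 1779, 1375 and 1276 CPM with C3aRA, against 1032, 918 and 956 CPM with oxy-Hb. The groups did not overlap, and the C3aRA libraries were themselves widely spread. Its fold was 1.52 (log2 0.61 ± 0.13 SE, adjusted p = 0.467 over all genes). Eif2ak3, the sensor kinase Perk, had 19.7, 17.6 and 14.5 CPM with C3aRA, against 11.1, 11.8 and 11.2 CPM with oxy-Hb (log2 0.60 ± 0.17 SE, adjusted p = 0.479). Atf6, the sensor cut in the Golgi to release a transcription factor, had 271, 252 and 251 CPM with C3aRA, against 212, 196 and 207 CPM with oxy-Hb (log2 0.33 ± 0.11 SE, adjusted p = 0.494). Neither gene overlapped with oxy-Hb. Ern1, in contrast, had 38.1, 31.5 and 33.4 CPM with C3aRA, inside the oxy-Hb range of 29.9 to 39.4 CPM (log2 -0.05 ± 0.15 SE, adjusted p = 0.954).

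In the ERAD complex, Sel1l had 185, 169 and 164 CPM with C3aRA, against 152, 126 and 131 CPM with oxy-Hb (log2 0.34 ± 0.11 SE, adjusted p = 0.479). Herpud1 had 51.5, 53.1 and 49.5 CPM with C3aRA, against 43.4, 38.7 and 35.8 CPM with oxy-Hb (log2 0.39 ± 0.14 SE, adjusted p = 0.504). In both genes every C3aRA library exceeded every oxy-Hb library. Syvn1 pointed the other way, with 7.71, 11.1 and 11.3 CPM with C3aRA, against 19.6, 15.8 and 11.1 CPM with oxy-Hb (log2 -0.62 ± 0.22 SE, adjusted p = 0.504), and its groups overlapped. Sil1, the nucleotide exchange factor of BiP, had 30.7, 31.4 and 28.4 CPM with C3aRA, against 23.4, 23.6 and 15.3 CPM with oxy-Hb (log2 0.54 ± 0.19 SE, adjusted p = 0.496).

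The lowest p among genes lower with C3aRA, after Syvn1, belonged to Dad1, a small subunit of oligosaccharyltransferase, with 33.2, 28.6 and 26.7 CPM with C3aRA, against 35.8, 41.9 and 38.8 CPM with oxy-Hb (log2 -0.40 ± 0.15 SE, adjusted p = 0.518). Tram1 had 74.8, 79.3 and 73.9 CPM with C3aRA, against 90.9, 92.2 and 83.2 CPM with oxy-Hb (log2 -0.22 ± 0.11 SE, adjusted p = 0.632). Neither gene overlapped with oxy-Hb. Next came Ubqln4, a shuttle that brings ubiquitinated proteins to the proteasome, at -0.20 ± 0.11, and the stress kinase Mapk9 at -0.19 ± 0.11 (SE) on the log2 scale, with adjusted p of 0.685 and 0.687. Of all 133 tested ER genes 79 had a log2 fold change above 0, as had 6789 of the 14146 genes. On the list of 14 ER chaperones and cochaperones 13 were above 0, with a median of 0.13. Of 7 disulfide-forming genes 6 were, with a median of 0.11. The 9 translocon genes had a median of -0.06. With library totals as the only scaling 10 of the 14 chaperones were above 0, and the medians of these lists were 0.06, 0.05 and -0.12. The median over all genes moved too, from -0.01 to -0.07.

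Other fits did call ER genes with C3aRA. Without the second C3a library 6 ER genes were higher with C3aRA (Atf6, Eif2ak3, Herpud1, Hspa5, Sel1l and Sil1), or 4.51% of those tested against 1.88% of all genes, and 1 was lower (Dad1), or 0.752% against 1.38%. Leaving out any of the other 8 libraries left 0. Fitting only the C3aRA and oxy-Hb libraries called 7 higher, the same 6 and Pdia4, or 5.34% against 2.48% of all genes, and 1 lower, Dad1, or 0.763% against 1.94%. The authors' deposited table gives the same 7 as higher (2.06% of all genes listed) and the same 1 as lower (1.06%). In it, Hspa5 has a log2 fold change of 0.62 with an adjusted p of 0.00677, and Atf6 one of 0.34 with 0.00011. C3a and C3aRA are set against the same oxy-Hb libraries, so the values of both comparisons are not independent.

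C3a and C3aRA were also set against each other. In edgeR's quasi-likelihood test 7 ER genes were higher with C3a, or 5.26% (2.87% of all genes), and 8 lower, or 6.02% (3.32%). Higher with C3a were Tram1, Dad1, Rpn1, Ssr1, Pdia3, Skp1a and Sar1a. Lower with C3a were the sensors Ern1 and Eif2ak3, the ERAD genes Sel1l, Herpud1, Edem1 and Ube4b, and Sec24a and Sec24b. The median log2 fold change was 0.04 over the ER genes and 0.01 over all genes.

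Tram1 had 119, 150 and 122 CPM with C3a, against 74.8, 79.3 and 73.9 CPM with C3aRA (log2 0.78 ± 0.11 SE, adjusted p = 0.0044). It was the 1 ER gene that passed whichever library was left out. Dad1 had 43.3, 60.2 and 44.1 CPM with C3a, against 33.2, 28.6 and 26.7 CPM with C3aRA (log2 0.74 ± 0.15 SE, adjusted p = 0.0147). Both genes had groups far apart. Ssr1, a subunit of the translocon-associated complex, had 384, 428 and 496 CPM with C3a, against 318, 328 and 310.0 CPM with C3aRA (log2 0.45 ± 0.11 SE, adjusted p = 0.033). The further genes higher with C3a were Skp1a (log2 0.51 ± 0.11 SE, adjusted p = 0.0227), Rpn1 (0.39 ± 0.09, adjusted p = 0.0278), Pdia3 (0.36 ± 0.10, adjusted p = 0.0453) and Sar1a (0.41 ± 0.11, adjusted p = 0.0468).

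Eif2ak3 had 9.83, 8.07 and 10.5 CPM with C3a, against 19.7, 17.6 and 14.5 CPM with C3aRA (log2 -0.87 ± 0.17 SE, adjusted p = 0.0145). Ern1 had 21.4, 15.6 and 20.4 CPM with C3a, against 38.1, 31.5 and 33.4 CPM with C3aRA (log2 -0.84 ± 0.16 SE, adjusted p = 0.0104). In both sensors every C3a library lay below every C3aRA library. The oxy-Hb libraries placed them differently: Ern1 with oxy-Hb was at the level of C3aRA, while Eif2ak3 with oxy-Hb lay between the other groups. Atf6, the remaining sensor, had 220, 168 and 225 CPM with C3a, against 271, 252 and 251 CPM with C3aRA, without passing (log2 -0.34 ± 0.11 SE, adjusted p = 0.0902).

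Sel1l had 132, 120 and 138 CPM with C3a, against 185, 169 and 164 CPM with C3aRA (log2 -0.41 ± 0.11 SE, adjusted p = 0.040). Herpud1 had 37.5, 40.6 and 28.8 CPM with C3a, against 51.5, 53.1 and 49.5 CPM with C3aRA (log2 -0.53 ± 0.14 SE, adjusted p = 0.0369). Edem1, a lectin-like factor that sends misfolded glycoproteins to ERAD, had 284, 248 and 260 CPM with C3a, against 348, 323 and 335 CPM with C3aRA (log2 -0.35 ± 0.09 SE, adjusted p = 0.0461). None of these groups overlapped. The ubiquitin chain-extending enzyme Ube4b was lower by a log2 fold change of -0.35 ± 0.10 (SE, adjusted p = 0.0472), Sec24a by -0.57 ± 0.10 (SE, adjusted p = 0.0104) and Sec24b by -0.59 ± 0.12 (SE, adjusted p = 0.0169). Syvn1 missed the threshold (log2 -0.25 ± 0.22 SE, adjusted p = 0.525), and so did Hspa5 at -0.44 ± 0.13 (SE, adjusted p = 0.0617), with no overlap between its groups.

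Without the second C3a library 12 ER genes were higher with C3a than with C3aRA, or 9.02% (5.97% of all genes), and 13 lower, or 9.77% (6.54%); Hspa5, Atf6 and Xbp1 were then among the lower ones. Without the first C3a library the counts were 14 and 13, and without the third 3 and 4. Leaving out a C3aRA library left 1 and 0, 1 and 3, or 1 and 3 for replicates 1, 2 and 3. Leaving out an oxy-Hb library left 5 and 4, 3 and 4, or 5 and 4. The share of all genes was counted only for the fit without the second C3a library. Over the 9 fits with 1 library left out, Ern1 and Sec24a passed in 8, and Eif2ak3 and Sec24b in 7. Dad1 and Skp1a passed in 6, and Rpn1 and Ssr1 in 4. Sel1l, Herpud1, Edem1, Ube4b, Pdia3 and Sar1a passed in 2. Groups did not overlap in 27 ER genes that were higher with C3a, or 20.3% (14.1% of all genes), and in 17 lower ones, or 12.8% (14.7%).

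**Figure D4:**
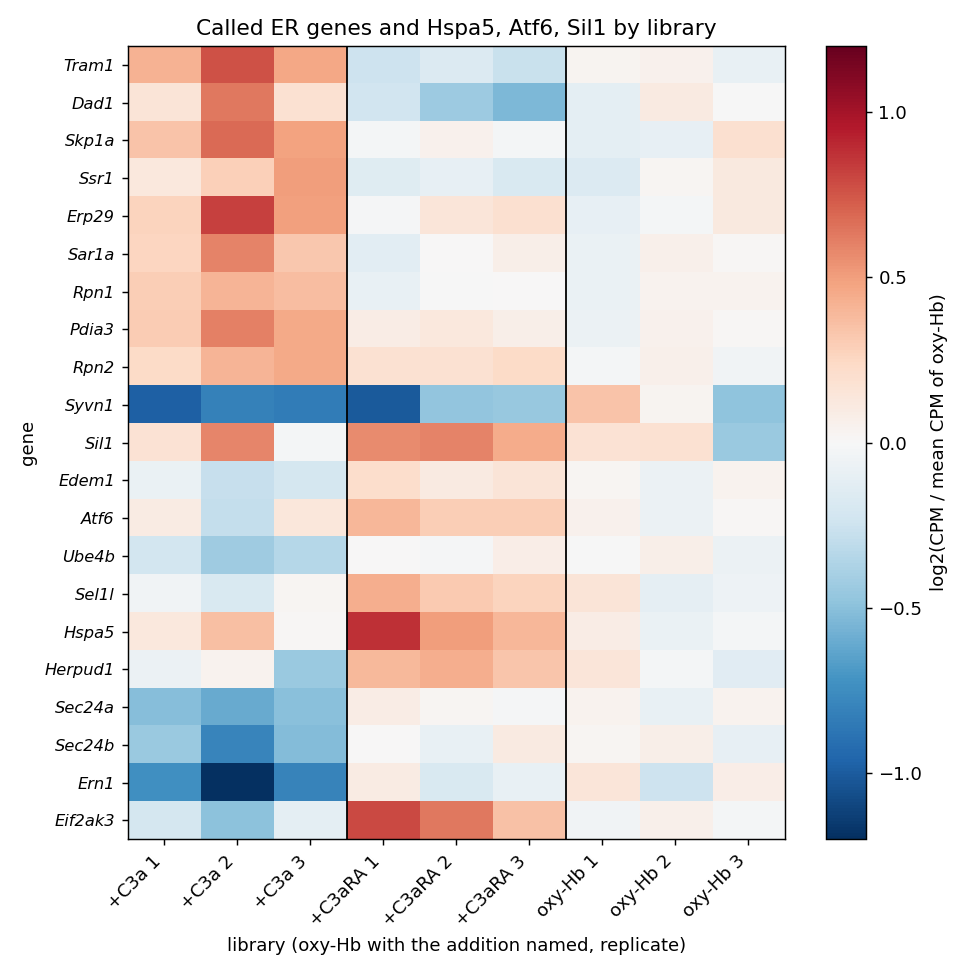
Log2 ratio of CPM to the mean of the oxy-Hb libraries in each of 9 libraries (columns: C3a, C3aRA, oxy-Hb), for the ER genes called in a comparison with C3a and for Hspa5, Atf6 and Sil1 (rows). Tram1 and Dad1 lie above 0 in the C3a and below 0 in the C3aRA libraries, Ern1, Sec24a and Sec24b lie below 0 in the C3a libraries, and Eif2ak3 lies above 0 in the C3aRA libraries.

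Of the 10 genes with ERSE or ERSE-II in the window 9 were tested, all but Derl3. With C3a against oxy-Hb 7 of them had a log2 fold change above 0, with a median of 0.17, and 1 passed, the fallen Syvn1. With C3aRA 8 were above 0, all but Syvn1, with a median of 0.13, and 0 passed. Between C3a and C3aRA 5 were above 0, with a median of 0.07, and 1 passed, Herpud1, which was lower with C3a. Of all 133 tested ER genes, 87, 79 and 77 were above 0 in these comparisons, with medians of 0.11, 0.05 and 0.04. Calr had 539, 633 and 567 CPM with C3a and 567, 480 and 437 CPM with C3aRA, against 425, 464 and 451 CPM with oxy-Hb. Its C3a libraries lay above those of oxy-Hb, while its C3aRA libraries overlapped with both other groups. The chaperones Hsp90b1 and Canx and the isomerase Pdia6, which also hold the element, passed in no comparison. Nor did Dnajc3, an inhibitor of UPR kinases, with 0.26 ± 0.11 for C3a and 0.16 ± 0.11 for C3aRA (SE, log2). The log2 fold changes of Hsp90b1, Canx and Pdia6 with C3a were 0.10 ± 0.10, 0.17 ± 0.10 and 0.17 ± 0.10 (SE), and with C3aRA 0.13 ± 0.10, 0.02 ± 0.10 and 0.10 ± 0.10 (SE).

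Summed over the 137 ER genes, the level was nearly the same in every group. The sum was 18749, 17944 and 18242 CPM with C3a and 18806, 17799 and 17940 CPM with C3aRA, against 17614, 17677 and 17873 CPM with oxy-Hb, all from library totals without further scaling. It made up 1.83%, 1.82% and 1.77% of the counts of these groups. The oxy-Hb libraries lay below most of the others, but the second C3aRA library was within their range.

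Transcript length moved with the response to C3a. The median length of the longest annotated transcript was 2854 bases among the 6 genes that rose, 5854.5 bases among the 4 that fell and 3525 bases over the 133 tested. Across these genes Spearman's rho between log2 fold change and length was -0.437 for C3a over oxy-Hb, against -0.238 across the 14132 tested genes with a known length. For C3aRA over oxy-Hb rho was 0.096 among the ER genes, and for C3a over C3aRA it was -0.457. These are descriptions across genes of the same libraries. With length and GC content fitted out per library, 8 ER genes were higher and 4 lower with C3a, the fallen ones still being Ern1, Sec24a, Sec24b and Syvn1. Erp29 then missed the threshold (adjusted p = 0.0529). With the same correction 8 were higher and 8 lower in C3a against C3aRA, but not the same genes. Sel1l, Edem1 and Ube4b no longer passed as lower, Edem2, Hspa5 and Man1b1 did, and Stt3a joined the higher ones. In C3aRA against oxy-Hb 0 were called. The share of all genes called with this correction was not counted.

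**Figure D5:**
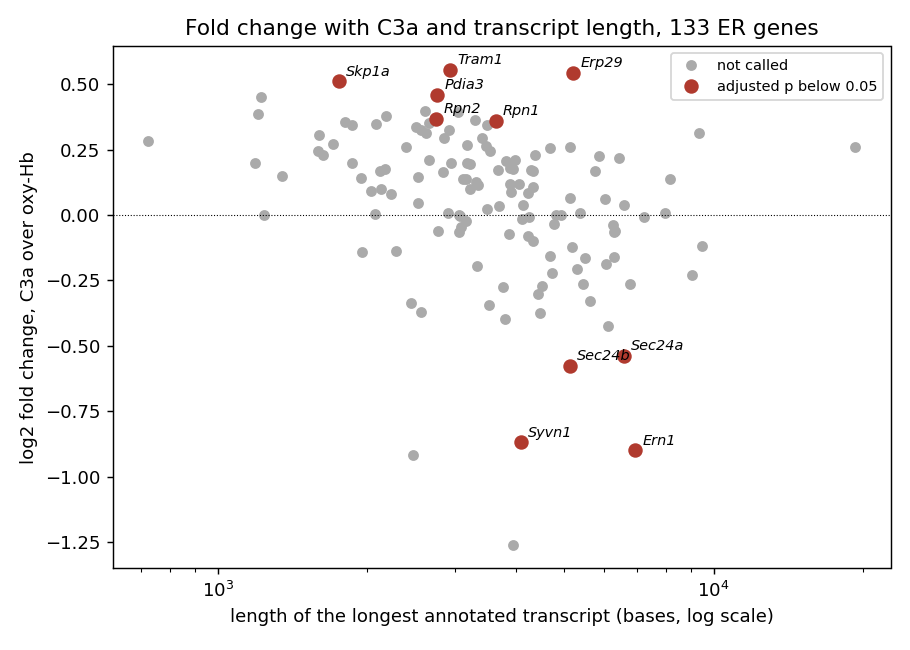
Log2 fold change of C3a over oxy-Hb (vertical axis) against the length in bases of the longest annotated transcript (log axis) for the 133 tested ER genes. Red points passed an adjusted p below 0.05; the 6 risen genes have a median length of 2854 bases and the 4 fallen ones of 5854.5 bases.

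The genes also differed in how evenly replicates expressed them. The median coefficient of variation over the tested ER genes was 12.2% with C3a and 6.19% with C3aRA, against 6.31% with oxy-Hb. Over all genes tested it was 18.9%, 9.92% and 10.7% in the same groups. Ero1l, the oxidase that recharges protein disulfide isomerase, was an abundant gene with uneven replicates. Its coefficient was 75.9% with C3a and 22.8% with C3aRA, against 10.1% with oxy-Hb. Scarce genes such as Uggt2 (0.512 ± 0.475 CPM, mean and SD) and Sec31b (0.775 ± 0.715 CPM) varied more with C3a relative to their means. Ero1l had 1148, 347 and 340 CPM with C3a and 1001, 630 and 811 CPM with C3aRA, against 839, 691 and 733 CPM with oxy-Hb. The first C3a library had the highest value of all 9 and the other C3a libraries the lowest, so its log2 fold change of -0.30 ± 0.39 (SE, adjusted p = 0.676) averages over unlike libraries. Without the first C3a library Ero1l passed as lower with C3a.

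A second list held 48 genes of ER stress and secretion outside the pathway term, all of which were tested. With C3a against oxy-Hb 3 rose (Tmed2, Srp9 and Ufm1) and 0 fell, or 6.25% and 0%, against 0.905% and 3.04% of all genes tested. The median log2 fold change was 0.26 in the list and 0.00 over all genes. Tmed2, a cargo receptor of early secretory vesicles, had 132, 164 and 143 CPM with C3a, against 103, 104 and 109 CPM with oxy-Hb (log2 0.48 ± 0.10 SE, adjusted p = 0.0226). Srp9, a protein of the signal recognition particle, had a log2 fold change of 0.50 ± 0.13 (SE, adjusted p = 0.0464). The ubiquitin-like modifier Ufm1 had one of 0.48 ± 0.13 (SE, adjusted p = 0.049). In the authors' deposited table Tmed2 passed (adjusted p = 0.0248), while Srp9 (0.0659) and Ufm1 (0.0656) did not. Calls of this second list were not counted with a library left out, in this or the other comparisons. With C3aRA 0 passed and the median was 0.11. The lowest p belonged to the thiol chaperone Erp44, which was higher (log2 0.39 ± 0.12 SE, adjusted p = 0.479). It was followed by Kdelr3, which was lower and is near the floor, and by the stress genes Trib3 and Chac1, which were higher. The authors' deposited table does call Erp44 (adjusted p = 0.0072) and Trib3 (adjusted p = 0.00214) as higher with C3aRA, but not Kdelr3 or Chac1.

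Between C3a and C3aRA, 6 genes of this list were higher with C3a (Tmed2, Kdelr2, Ufm1, Fkbp11, Creb3 and Spcs3) and 0 lower, or 12.5% and 0%, against 2.87% and 3.32% of all genes tested. The median was 0.19 in the list and 0.01 over all genes. Kdelr2, which returns escaped ER proteins from the Golgi, had 45.9, 63.2 and 53.5 CPM with C3a, against 34.4, 33.4 and 34.5 CPM with C3aRA (log2 0.67 ± 0.15 SE, adjusted p = 0.0224). Spcs3, a subunit of signal peptidase, had 296, 323 and 356 CPM with C3a, against 258, 257 and 248 CPM with C3aRA (log2 0.35 ± 0.10 SE, adjusted p = 0.0487). Both had groups that did not overlap.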

How the data were processed

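RNA-seq of BV2 cells was read from tables that the authors deposited: raw counts per Ensembl gene, with the authors' log2 fold change, p-value and adjusted p-value against oxy-Hb, cited here as theirs. Per the submitters' processing notes the genome builds were GRCm38 and mm10. The aligner, counting tool, strand setting and statistical test were not given in the sources used here, so reads of overlapping genes cannot be told apart. The oxy-Hb counts were the same in both tables (0 differed), and all 9 libraries entered 1 fit. Of the ER genes, 131 had the same start and end in GENCODE M21, whose longest transcript gave length and GC content. A spreadsheet had turned 9 symbols into dates, which were restored by identifier.

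edgeR 4.0.16 in R 4.3.3 was used with filterByExpr (minimum count 10), TMM scaling, 1 coefficient per group and the robust quasi-likelihood F test, with Benjamini-Hochberg adjustment over 14146 genes and calls at 0.05 without a minimum fold. CPM of single genes are TMM-scaled. SEs come from the fit, and the script was tested on simulated data. Total counts per library ran from 12934794 to 20479002. Replicates differed by more than sampling noise, with a mean chi-square per gene of 5.34 to 10.44, and of 60.91 and 67.52 for the second C3a library.

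The ER genes, role lists and second list were chosen with earlier results of these data known. Named genes were Hspa5, Pdia3, Sel1l, Herpud1 and Syvn1, every called gene up to 10 per direction, the 5 lowest p where fewer than 3 were called, and per role list the most abundant gene and that with the lowest p. Others (paralogs, partners, genes with a promoter element, Xbp1, Ero1l) were added after their values were seen. The role lists lacked 5 genes, of which 2 were placed later and 3 left without a role. Alternatives were DESeq2 1.42.0 size factors and Wald test, limma 3.58.1 voom, upper quartile and total count scaling, no filter, a mean of 5 CPM, a fit of only the compared groups, replicate number as a block, a spline correction for length and GC, and leaving out each library. The length and GC correction and the fit of compared groups alone, each without the second C3a library, were chosen after seeing the data.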

Additional observations from a re-analysis of the deposited data

How the results depend on the processing

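In C3a against oxy-Hb, 10 ER genes were called. DESeq2 called 17 and the fit of both groups alone 1. Without the second C3a library, a setting chosen after seeing the data, 18 were called with the length and GC correction and 18 with both groups alone. Leaving out 1 library gave 0 to 25. The median log2 fold change of 0.11 was 0.01 with total count scaling. The median over all genes moved with it, from 0.00 with TMM scaling to -0.09. The ER median was 0.04 and 0.06 in the settings chosen after seeing the data, and 0.06 to 0.12 with 1 library left out. In C3aRA against oxy-Hb, the 0 calls became 1 without a filter, 1 with DESeq2, 8 with both groups alone and 7 with the length and GC correction without the second C3a library, and 0 to 7 with 1 library left out. The median of 0.05 was 0.03 with upper quartile scaling and with the filter of 5 CPM. It was also 0.03 with the length and GC correction (also with the block or without the second C3a library). With total count scaling it was -0.02, while the median over all genes moved from -0.01 to -0.07. With 1 library left out the ER median was 0.03 to 0.06. In C3a against C3aRA, the 15 calls became 2 with both groups alone. Without the second C3a library they became 25 with the length and GC correction and 26 with both groups alone, and leaving out 1 library gave 1 to 27. The median was 0.03 to 0.07 with 1 library left out. The cause of these shifts was not tested. Counts in this section have no share of all genes beside them, so they cannot be read as changes particular to the ER genes.

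With the replicate number as a block, 12 ER genes were called in C3a against oxy-Hb, 0 in C3aRA against oxy-Hb and 20 in C3a against C3aRA. Deviations of same-numbered libraries from their group means had correlations of -0.041 to 0.17, against -0.142 to 0.081 for libraries of unlike number. With 3 libraries per group these cannot decide whether same-numbered libraries were prepared together.

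Of the named genes, Sel1l in C3a against oxy-Hb turned to 0.029 with the length and GC correction, 0.033 with the block added and 0.021 without oxy-Hb replicate 1 (-0.116 to 0.021 with 1 library left out). Hspa5 in the same comparison turned to -0.040 with the length and GC correction without the second C3a library. Neither passed in any setting. Over all named genes and settings, 762 results kept direction and side of the threshold, 152 lost and 38 gained their call, and 4 changed sign. With 3 libraries per group, small changes may not be called.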

Other observations

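After the spread of Ero1l had been seen, 20 genes known to respond to low oxygen were looked at, of which 19 are listed in the tables. In 10 of them the first C3a library had the highest level of all 9, and in the other 9 another library did. The 10 include Ero1l, which prompted the list. How often that library is highest over all genes was not counted, so no trait of low-oxygen genes can be read from this. Bnip3, a mitophagy receptor, had 171, 79.2 and 60.0 CPM in the C3a libraries. Egln3, an oxygen-sensing prolyl hydroxylase, had 151, 61.6 and 59.3 CPM in them. The glucose transporter gene Slc2a1 had 205, 123 and 99.8 CPM. In Vegfa, Pgk1, Ldha and Mif another library was highest, and Vegfa had 77.9, 82.1 and 60.4 CPM in the C3a libraries. The list was chosen after these values were seen, so no test was made.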
